A study of Mus musculus with 4 samples.

Results

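The step between 2 h and 4 h of actinomycin D in RAW264.7 cells, a mouse macrophage line, was described gene by gene from the pair of libraries taken at those times. It was chosen by its time points and not by any measured value. Both libraries came from cells treated with 10 µg/ml of the drug, and the course also held an untreated library and one taken at 6 h of the same dose, so that 2 of 4 libraries enter the step and the other two are given beside it. There was 1 library at each time, nothing in the labels tells whether each time was a culture of its own, and no difference given here has a replicate check. The labelled molecule was cytoplasmic RNA, ribosomal RNA was depleted before library preparation, and no other cell line, genotype or agent was used here. Of 41324 genes in the table, 10765 reached 1 CPM on average over the 2 h and 4 h libraries and were tested against the thresholds below. CPM here are counts rescaled by library size, with each size adjusted by the TMM scaling named below.

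Actinomycin D binds DNA and stops RNA polymerases, so that in its presence an RNA's level is set mainly by how fast that RNA is removed. Most mRNAs are removed after their poly(A) tail has been shortened by deadenylases such as the CCR4-NOT complex, after which the cap is taken off and the body is degraded. Elements in the 3' untranslated region (3' UTR) speed this up, among them AU-rich elements bound by tristetraprolin and the sites bound by Pumilio proteins. Histone mRNAs of dividing cells are an exception, since they end in a stem-loop instead of a poly(A) tail and have a decay route of their own.

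The 2 h library held 38260540 gene counts and the 4 h library 70289647, the deepest of the series, against 35669434 in the untreated and 12762100 in the 6 h library. Genes with at least 1 count numbered 16489 at 2 h and 17418 at 4 h. The largest share of the 2 h counts, 3.59%, belonged to mt-Rnr2, the large ribosomal RNA of mitochondria (exact binomial 95% interval 3.58 to 3.59%). Its share at 4 h was 4.98% (4.97 to 4.98%), and no other gene took more than 1.15%. All 11 macrophage markers examined were present, from 24.6 to 1829 CPM at 2 h and from 28.6 to 2259 CPM at 4 h. Of 29 markers of other cell types 17 were at 0 in both libraries, and the highest stood at 0.579 CPM at 2 h and 0.679 CPM at 4 h. Their summed level was 1.90 CPM at 2 h and 2.26 CPM at 4 h, and its part in the differences below was not tested.

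Levels are given as CPM after TMM scaling, and differences as the log2 ratio of the 4 h level over the 2 h level, with an exact 95% interval that covers counting error only. Scaling of this kind sets the typical gene near 0, so a ratio says how a transcript moved relative to the typical one and not how many molecules a cell held. In bulk RNA, fewer cells and less RNA per cell cannot be told apart. A gene was called lower where its log2 ratio was at or below −0.5 and higher where it was at or above 0.5. Where 4 levels are given in a row they are those of the untreated, 2 h, 4 h and 6 h libraries in that order, and parentheses after a ratio, or around both, hold its interval. CPM is not divided by transcript length, so levels are compared between times for 1 gene and not between genes.

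Most transcripts kept their place over the step, and those that left it mostly went down. Of 10765 genes 808 were lower at 4 h (7.51%) and 115 were higher (1.07%), while 9842 lay between. The median log2 ratio was 0.01, the central 50% of genes lay between −0.18 and 0.12, and the lowest and highest 1% began at −0.99 and 0.51. At a log2 ratio of 1 or more in either direction, 105 genes were lower (0.975%) and 8 were higher (0.0743%). A mean filter also keeps genes that are under 1 CPM in 1 of the libraries. There were 166 such genes, 55 of them lower and 31 higher, and with at least 1 CPM in both libraries, a filter chosen after the values were seen, 753 of 10599 genes were lower and 84 higher. The counting interval left out 0 for 800 of the 808 lower and for 110 of the 115 higher genes. At the threshold, Ddx59 was the last gene inside on the lower side with −0.500178 and Terf2ip the nearest outside with −0.499703, and on the higher side RP23-54G12.5 stood inside at 0.500569 and RP23-7M16.1 outside at 0.496807. With the divisors behind the authors' deposited normalized values in place of TMM, 1698 genes were lower and 33 higher, and the median ratio moved by −0.19.

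**Figure D1:**
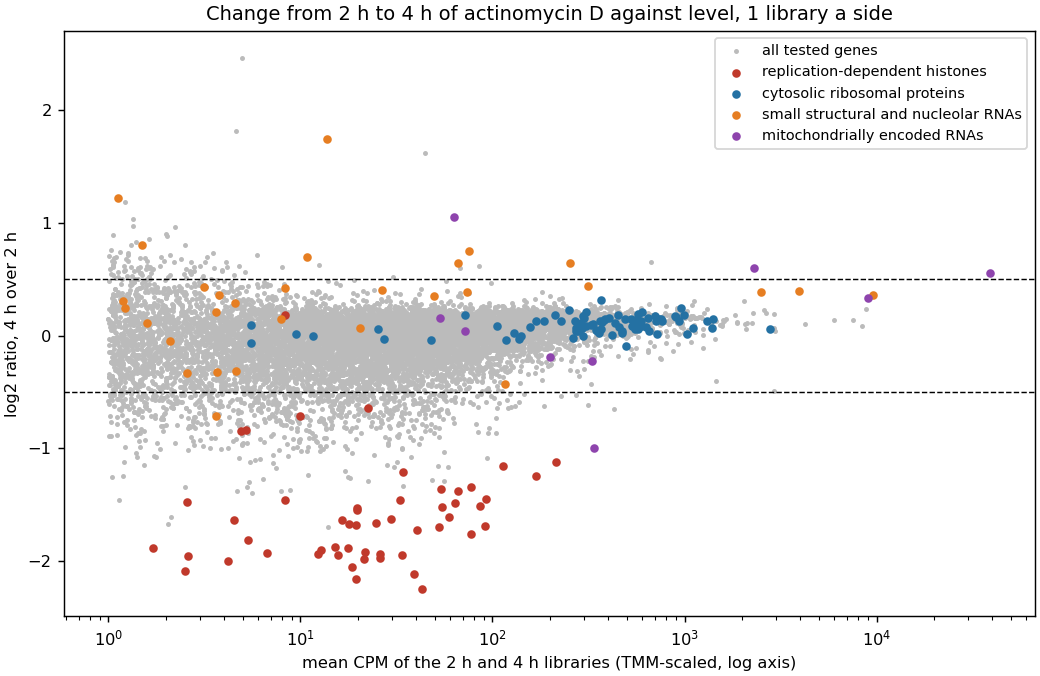
Log2 ratio of the 4 h over the 2 h library (y axis) against the mean CPM of both libraries (x axis, log scale) for all 10765 genes, 1 point a gene, with dashed lines at −0.5 and 0.5. Replication-dependent histones lie far under the lower line, ribosomal protein genes form a narrow band just above 0, and small nucleolar and mitochondrially encoded RNAs are frequent on the upper side.

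As a class, the lower genes were also lower before 2 h and moved less after 4 h. Their median log2 ratio was −0.90 from the untreated to the 2 h library, −0.67 over the step and −0.16 from 4 h to 6 h, against 0.03, 0.01 and −0.02 for all tested genes. The higher genes had medians of 0.19, 0.61 and 0.35 over the same steps. These steps share the 2 h or the 4 h library with the one described, so the values stand side by side and are no independent check of it. The lower genes had a median level of 10.1 CPM and the higher genes of 1.66 CPM, against 28.7 CPM for all tested genes. Symbols of predicted genes, clones, Rik entries or pseudogenes made up 59 of the 115 higher genes and 108 of the 808 lower ones.

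Level bore on both the precision and the share of calls. The median interval reached 0.376 log2 to either side for the 1916 genes between 1 and 5 CPM, and 0.0403 for the 2034 genes of at least 100 CPM. In the low class 255 genes were lower (13.3%) and 98 higher (5.11%). In the high class 21 were lower (1.03%) and 4 higher. Between them, the 2579 genes from 5 to 20 CPM had 305 lower (11.8%) and 6 higher, and the 4236 genes from 20 to 100 CPM had 227 lower (5.36%) and 7 higher. Of the 115 higher genes 98 were thus in the class with the widest intervals. Away from the tested genes, 658 genes had counts at 2 h and 0 at 4 h, none of them with more than 6 counts, and 1587 genes had 0 at 2 h and up to 38 counts at 4 h.

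Half-lives in the authors' deposited table, which were made from these same libraries, separated the classes in the same direction. Of the 808 lower genes 796 had a deposited half-life above 0 h, with a median of 1.84 h. Of the 9842 genes between the thresholds 8919 had one, with a median of 8.42 h. Of the 115 higher genes 73 were listed with a half-life below 0, and the other 42 had a median of 8.83 h.

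Replication-dependent histone mRNAs, which supply the proteins that package newly copied DNA, were lower at 4 h almost without exception. Of 61 core histone genes listed, 47 were tested and 46 were lower (44 of 45 with at least 1 CPM in both libraries), with a median log2 ratio of −1.67, and of 6 linker histone genes 5 were tested and all 5 were lower, with a median of −1.69. Among all tested genes 7.51% were lower and the median was 0.01. The summed level of the core histone list went from 2236 CPM at 2 h to 807 CPM at 4 h, and that of the linker list from 624 to 213 CPM. Both lists were lower before 2 h as well, with medians of −2.52 and −2.34 against the untreated library, and their medians from 4 h to 6 h were −0.70 and −0.59.

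The 3' end of such an mRNA is a short hairpin held by the stem-loop binding protein. It is shown here because members with very different ratios carry the same letters. Of the 52 tested histone genes 41 had an annotated 3' UTR and 35 of these held a match to a stem of 6 base pairs around a loop of 4 bases. Matches were searched for on the sense strand only. Each line runs 5′ to 3′ on the gene's own strand, from the GENCODE M21 transcripts of the mm10 build (GRCm38), with the stem-loop in capitals.
Hist1h1d: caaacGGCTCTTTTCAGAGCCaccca
Hist1h2bg: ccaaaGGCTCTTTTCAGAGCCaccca
Hist1h1c: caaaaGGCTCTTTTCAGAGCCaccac
Hist1h4d: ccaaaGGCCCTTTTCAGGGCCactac
Hist2h4: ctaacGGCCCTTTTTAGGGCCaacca
Hist1h4i: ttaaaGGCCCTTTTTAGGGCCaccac
They lie at chr13:23555782-23555807 (Hist1h1d, plus strand), chr13:23571838-23571863 (Hist1h2bg, plus), chr13:23739507-23739532 (Hist1h1c, plus), chr13:23581945-23581970 (Hist1h4d, plus), chr3:96262934-96262959 (Hist2h4, minus) and chr13:22040961-22040986 (Hist1h4i, minus). All 6 are in the 3' UTR of their gene.

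Histones with the same stem-loop letters differed widely in how far they fell. The form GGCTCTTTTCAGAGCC was present in 18 tested genes, whose ratios ran from −2.25 in Hist1h1d to −1.16 in Hist1h1c with a median of −1.93. The form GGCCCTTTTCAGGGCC was present in 5 genes of the H4 family with a median of −1.51. The form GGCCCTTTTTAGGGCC was shared by Hist2h4 at −2.12 and Hist1h4i at −0.65, the latter nearest to 0 of the genes with a match. The 35 matching genes had a median of −1.73 and 8 distinct stem-loops in all. The same search matched 54 of 9553 tested genes with a 3' UTR (0.565%), of which 19 were on no histone list. A match describes letters in the annotation and no more.

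Hist1h1d, a linker histone, had the lowest ratio of the list. Its level was 666 CPM before the drug, 71.0 after 2 h, 14.9 after 4 h and 11.6 after 6 h, so that 21% of its 2 h level was left at 4 h, a log2 ratio of −2.25 (−2.35 to −2.15). Its ratio was −3.23 before 2 h and −0.36 after 4 h, and the authors' deposited table gives it a half-life of 0.646 h. The core histone Hist1h2bg stood at 237, 32.0, 7.15 and 2.93 CPM in the same order of times, with a ratio of −2.16 (−2.31 to −2.02), and a ratio of −1.28 from 4 h to 6 h. Hist2h4 stood at 723, 63.2, 14.6 and 9.61 CPM, with a ratio of −2.12 (−2.22 to −2.02).

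Other members had ratios nearer to 0. Hist1h4d, an H4 gene, stood at 920, 293, 135 and 70.4 CPM and kept 45.9% of its 2 h level at 4 h, with a ratio of −1.12 (−1.16 to −1.08). Hist1h1c stood at 779, 157, 70.4 and 46.7 CPM with a ratio of −1.16 (−1.21 to −1.11), and Hist1h1e at 695, 136, 49.6 and 33.5 CPM with −1.45 (−1.51 to −1.40). Hist1h1e shares 496 bases with Hist1h2be on the same strand. Hist2h2bb, an H2B gene, stood at 714, 236, 99.1 and 47.7 CPM with a ratio of −1.25 (−1.29 to −1.21), and all 381 bases of its annotated model lie within a long non-coding RNA of the same strand.

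A few histone genes stood apart. Hist2h2be, an H2B gene, was the 1 tested replication-dependent histone that was not lower, at 6.34, 7.76, 8.82 and 9.78 CPM and a ratio of 0.19 (−0.01 to 0.38). It is among 6 genes whose annotated 3' UTR held no stem-loop match. The other 5, Hist1h2af, Hist1h2bc, Hist1h2bp, Hist2h3b and Hist1h1a, were lower all the same, with ratios of −1.22, −0.84, −1.64, −1.68 and −1.69. Histone genes are near-identical copies, and the sources used here do not state how reads shared between copies were counted, so the value of any single copy is uncertain.

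Genes on the list of polyadenylated variant histones mostly lay between the thresholds. Whether the mRNA of each member carries a poly(A) tail was not tested. Of 9 tested members 1 was lower (11.1%, against 7.51% of all genes). It was the DNA damage variant H2afx at −0.53 (−0.56 to −0.50), with 756, 321, 223 and 193 CPM at the 4 times. The replacement variant H3f3a stood at 80.1 CPM at 2 h and 94.7 at 4 h (0.24, 0.18 to 0.30), H3f3b at 429 and 473 CPM (0.14, 0.11 to 0.16) and H2afz at 457 and 490 CPM (0.10, 0.07 to 0.12). The list's median was 0.11, and it was −0.09 with the deposited divisors, under which the core histone median was −1.86.

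**Figure D2:**
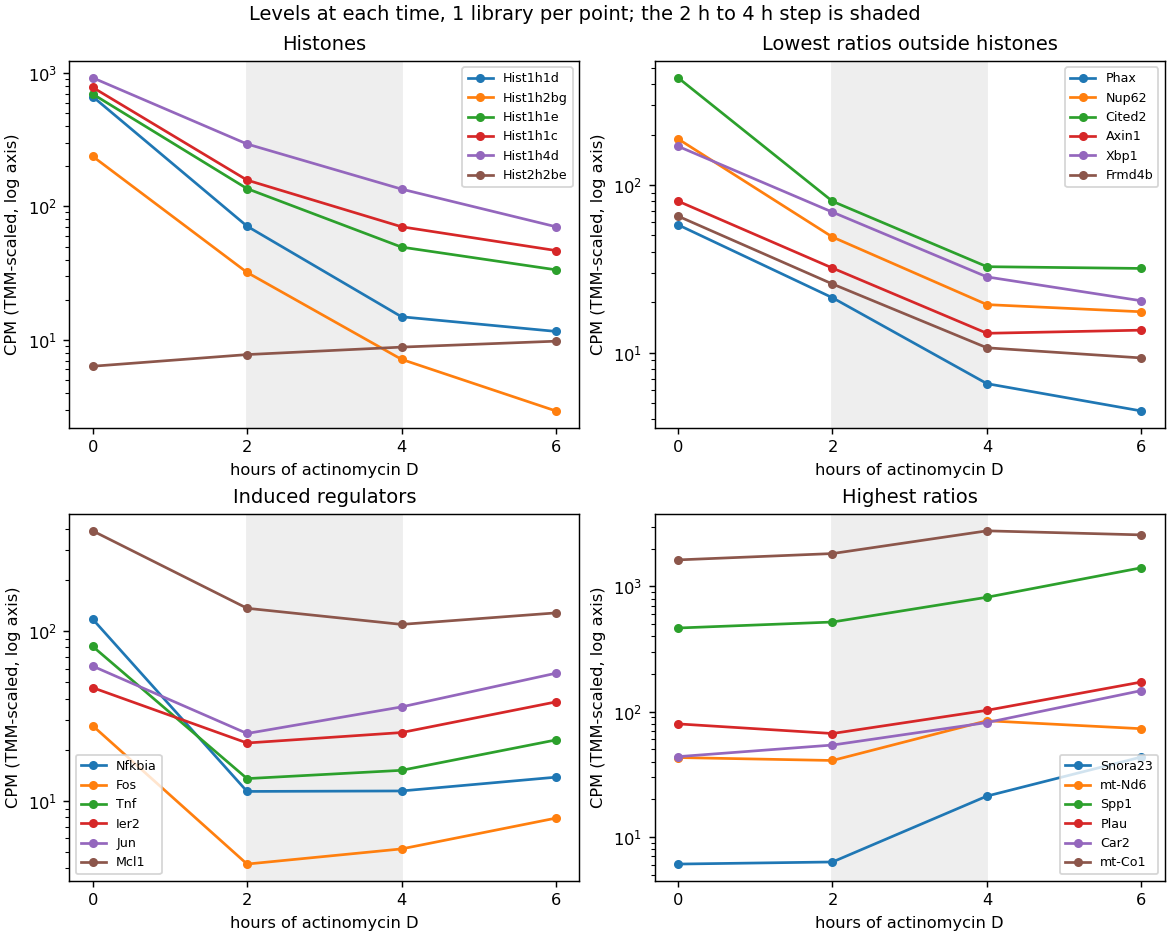
Levels in CPM (y axes, log scale) of 24 named genes at 0, 2, 4 and 6 h of actinomycin D (x axes), 1 library a point, with the 2 h to 4 h step shaded. Histone mRNAs other than Hist2h2be and the lowest genes outside the histones go down through the shaded step, the induced regulators Fos, Tnf, Ier2 and Nfkbia are flat or slightly up in it after an early drop, and the genes of highest ratio go up.

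Outside the histones, the 12 lowest ratios at 10 CPM or more belonged to genes of varied roles. They were Phax, Nup62, Cited2, Axin1, Xbp1, Frmd4b, Nufip1, Rhof, Mkl1, Tlr2, Bcor and Gnl3, with ratios from −1.70 to −1.16. Phax, an export adaptor for small nuclear RNAs, stood at 57.9, 21.2, 6.52 and 4.48 CPM. It kept 30.7% of its 2 h level at 4 h, a ratio of −1.70 (−1.86 to −1.54). The gene overlaps Aldh7a1 on the opposite strand, whose own ratio was 0.19 (−0.02 to 0.40).

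Among the 12 were the transcription factors and co-regulators Cited2, Xbp1, Mkl1 and Bcor. Cited2, a co-regulator that binds the acetyltransferases CBP and p300, stood at 437, 79.9, 32.5 and 31.8 CPM with a ratio of −1.30 (−1.37 to −1.22). It was at 18.3% of its untreated level at 2 h and at 7.45% at 4 h, and its ratio from 4 h to 6 h was −0.03. Xbp1, the transcription factor of the unfolded protein response, stood at 170, 68.9, 28.3 and 20.4 CPM with a ratio of −1.28 (−1.36 to −1.20). Mkl1, the actin-regulated partner of serum response factor, stood at 79.0, 23.8, 10.3 and 11.2 CPM (−1.21, −1.34 to −1.07), and Bcor, a BCL6 corepressor, at 84.8, 42.4, 18.9 and 15.9 CPM (−1.16, −1.27 to −1.06).

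Others act at the nuclear pore and in signalling. Nup62, a central channel protein of the nuclear pore, stood at 188, 48.9, 19.3 and 17.5 CPM (−1.34, −1.44 to −1.24), and 14426 of the 14725 bases of its gene are shared with Il4i1 on the same strand. Axin1, the scaffold of the beta-catenin destruction complex, stood at 80.1, 31.9, 13 and 13.6 CPM (−1.29, −1.41 to −1.17). Tlr2, a receptor for bacterial lipoproteins, stood at 228, 81.2, 36.2 and 28.3 CPM (−1.16, −1.24 to −1.09). Over the step, the 12 genes kept between 30.7% and 44.8% of their 2 h level.

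Gnl3, a nucleolar GTPase, stood at 134, 72.2, 32.4 and 23 CPM with a ratio of −1.16 (−1.23 to −1.08). Nufip1, a factor of box C/D snoRNP assembly, stood at 44.5, 24.8, 10.4 and 5.70 CPM (−1.26, −1.40 to −1.13). Both lost more over this step than before it, with ratios of −0.89 and −0.84 from the untreated to the 2 h library, whereas Cited2 and Nup62 lost more before it, with −2.45 and −1.95. Frmd4b, a FERM domain scaffold, had a ratio of −1.26 (−1.40 to −1.13), and Rhof, a small GTPase that drives filopodia, −1.24 (−1.41 to −1.07). The whole Rhof gene lies within a long non-coding RNA of the same strand and partly opposite Tmem120b.

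Among the 12 genes, Axin1, Rhof, Bcor and Gnl3 had a Pumilio-type site, TGTANATA on the sense strand, in the annotated 3' UTR. Phax was left out of this listing. The motif is present in 26.5% of all tested genes with an annotated 3' UTR. The windows below are shown because genes with this motif were called lower more often than genes without it, as described further on. Cdt1 and Sqle, also shown, are lower genes outside the 12. Each runs 5′ to 3′ on the gene's strand with the motif in capitals, from the same mm10 transcripts.
Axin1: agtgtccgTGTAAATAtgtacatt
Gnl3: gtacatctTGTAAATAtgtatcat
Bcor: cttgaaaaTGTACATAaaactaaa
Cdt1: gggccttcTGTAAATAtgtgaagt
Sqle: gaagaggaTGTATATAgcatagaa
Sqle: tataagcaTGTAAATAtaagcctt
They lie at chr17:26195670-26195693 (Axin1, plus strand), chr14:31012471-31012494 (Gnl3, minus), chrX:12036866-12036889 (Bcor, minus), chr8:122573008-122573031 (Cdt1, plus), and chr15:59330954-59330977 and chr15:59331018-59331041 (Sqle, plus). The 3' UTR of Gnl3 has 119 bases and that of Sqle 275 bases with both of its sites.

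Across genes, TGTANATA marked lower ratios, most of all in short 3' UTRs. Of 9553 tested genes with an annotated 3' UTR, 26.5% held the motif. The median log2 ratio was 0.03 for the 7019 genes with 0 sites, −0.02 for the 1752 with 1, −0.05 for the 526 with 2 and −0.10 for the 256 with 3 or more. The share called lower was 6.41%, 8.16%, 11.0% and 5.86% in the same order, against 6.97% over all 9553, so the share did not rise with every further site. Genes are not independent replicates, and these values describe the pair of libraries only.

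Within classes of equal 3' UTR length the contrast was clearest on the short side. In the class of the shortest 3' UTRs, up to 393 bases, 12.9% of the 132 genes with a site were lower against 7.40% of the 1784 without. From 394 to 872 bases it was 15.9% of 277 against 6.62% of 1631, and from 873 to 1541 bases 10.6% of 463 against 6.35% of 1448. From 1542 to 2641 bases it was 8.71% of 643 against 5.70% of 1264, and above that 4.91% of 1019 against 5.16% of 892. The medians were lower with a site in each of the 5 classes, by the widest margin in the shortest, −0.10 against 0.03. Where the shortest annotated 3' UTR of each gene was used in place of the longest, shares were 6.22%, 9.29%, 16.2% and 9.24% for 0, 1, 2 and 3 or more sites.

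**Figure D3:**
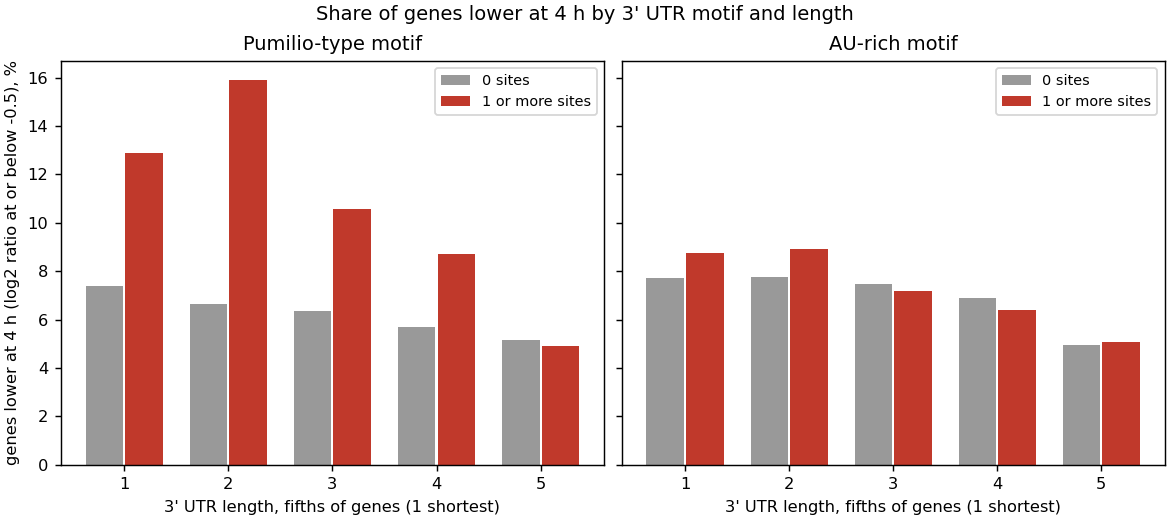
Percent of genes called lower (y axes) by 5 equal classes of 3' UTR length (x axes, 1 is shortest), with grey bars for genes without and red bars for genes with the motif. Red bars are above grey ones in 4 of 5 length classes for the Pumilio-type motif TGTANATA, while the AU-rich motif TATTTAT gives nearly equal bars.

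The AU-rich nonamer core TATTTAT, held by 30.4% of these 3' UTRs, showed smaller differences in median between site classes. Its median ratios were 0.0188, 4.6e-06, −0.0004 and −0.0012 for 0, 1, 2 and 3 or more sites. The shares called lower were 7.22%, 6.55%, 7.14% and 4.37% in the same order. With the shortest annotated 3' UTR the medians were 0.0169, 0.0029, −0.0017 and −0.0454. The shares were then 6.91%, 7.10%, 7.71% and 7.30%. Median ratios went from 0.06 to −0.02 over 5 classes of rising coding length. Over 5 classes of rising G and C content at the third codon position, 5.44%, 5.92%, 7.22%, 6.91% and 9.37% were lower. The median ratios of these classes, between 0.00 and 0.03, showed no order. Median levels were 40.4 CPM in the first class and 25.9 CPM in the last, and the part of level was not tested. Histones were not left out of these classes.

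Genes with few exons were called lower more often, a contrast chosen after the values were seen. Of 179 genes with 1 exon 29.1% were lower, and of the 141 left without the histones 10.6%. Of 396 genes with 2 exons 15.7% were lower, and of 5157 genes with 9 or more exons 5.72%. The 141 genes had a median ratio of 0.02, as did those with 9 or more exons, and 4.96% of them were higher against 0.310%. Median levels were 8.27 CPM for the 141 genes, 10.7 CPM with 2 exons and 46.2 CPM with 9 or more. Of all genes from 5 to 20 CPM 11.8% were lower, and the part of level in this order was not tested.

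Immediate-early genes, which are switched on by growth factors and inflammatory signals without new protein synthesis, made most of their move before this step. Their median log2 ratio was −1.44 from the untreated to the 2 h library, −0.04 over the step and 0.29 from 4 h to 6 h. Of 29 tested members 3 were lower (10.3%, against 7.51% of all genes), Klf4, Btg1 and Atf3. Arc and Jun were the 2 higher ones (6.90%, against 1.07% of all genes). Klf4, a transcription factor of monocyte differentiation, stood at 22.1, 9.84, 4.47 and 5.46 CPM at the 4 times, with a ratio of −1.14 (−1.35 to −0.93). Btg1, an antiproliferative factor that recruits deadenylases, stood at 201, 54.9, 28.2 and 31.5 CPM with a ratio of −0.96 (−1.05 to −0.88), and the stress factor Atf3 at 17.1, 4.61, 2.82 and 2.44 CPM with −0.71 (−0.99 to −0.42).

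Jun and Arc went the other way. Jun, a subunit of the AP-1 transcription factor, stood at 62.1, 24.9, 35.7 and 56.4 CPM, with a ratio of 0.52 (0.42 to 0.62). Its 4 h level was above the 2 h level and below the untreated one. Arc, known from synapses, stood at 10.3, 3.80, 5.83 and 8.72 CPM with a ratio of 0.62 (0.36 to 0.89). Jun stood at 0.44 with total counts and at 0.33 with the deposited divisors, both under the threshold. It overlaps the antisense gene Junos, and the sources used here do not state whether the counting used strand.

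The classical unstable mRNAs stayed near their 2 h level. Fos, the partner of Jun, stood at 27.7, 4.24, 5.2 and 7.90 CPM, a ratio of 0.30 (0.04 to 0.56) from 183 and 391 counts. The cytokine Tnf stood at 81.2, 13.5, 15.1 and 22.8 CPM (0.16, 0.02 to 0.31), and Nfkbia, the inhibitor of NF-kB, at 118, 11.3, 11.4 and 13.8 CPM (0.01, −0.15 to 0.17). All 3 lay between the thresholds. Ier2, a small immediate-early gene, had a ratio of 0.20 (0.09 to 0.32), and Zfp36, which encodes tristetraprolin, one of 0.17 (0.03 to 0.30). The survival factor Mcl1 stood at 389, 136, 109 and 128 CPM, with a ratio of −0.32 (−0.36 to −0.27).

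Feedback regulators of signalling behaved much like the immediate-early list, with a median of −1.15 before 2 h and −0.08 over the step. Of 26 tested members 1 was lower (3.85%, against 7.51% of all genes), the differentiation inhibitor Id2 at −0.71 (−0.89 to −0.53). Another 1 was higher (3.85%, against 1.07% of all genes), the ERK phosphatase Dusp5 at 0.68 (0.16 to 1.24). Dusp5 rested on 41 and 115 counts and passed the filter only through the 4 h library where it was high, and among the 25 members with at least 1 CPM in both libraries 0 were higher. Of 27 NF-kB pathway members 2 were lower (7.41%, against 7.51% of all genes) and 0 were higher, with a median of −0.12. These were the receptor adaptors Traf2, at −0.75 (−0.93 to −0.58), and Traf6, at −0.57 (−0.67 to −0.47).

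Cytokines and chemokines had a median of 0.16, with 1 of 14 tested members lower (7.14%, against 7.51% of all genes). The 2 higher members were Il1rn and Spp1 (14.3%, against 1.07% of all genes). Ccl4, an inflammatory chemokine, stood at 19.8, 5.81, 3.61 and 3.83 CPM (−0.69, −0.94 to −0.43). Il1rn, the interleukin-1 receptor antagonist, stood at 2.96, 2.83, 4.29 and 8.72 CPM (0.60, 0.30 to 0.91). The chemokines Ccl3 and Ccl9 had ratios of 0.37 (0.28 to 0.45) and 0.39 (0.35 to 0.43) and lay between the thresholds. With the deposited divisors the median of this list was −0.03.

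Among interferon pathway genes 1 of 26 was lower (3.85%, against 7.51% of all genes), the immunity GTPase Irgm1 at −0.64 (−0.86 to −0.42), and 0 were higher. Of 23 p53 pathway genes 3 were lower (13%, against 7.51% of all genes) and 0 higher. They were the repressor Bcl6 at −0.83 (−1.07 to −0.59), the metabolic regulator Tigar at −0.81 (−0.94 to −0.69) and the repair factor Xpc at −0.68 (−0.87 to −0.49). Cdkn1a, the best known p53 target, had a ratio of −0.13 (−0.21 to −0.05). Of 14 genes of the BCL2 family 0 were past the threshold in either direction, and the lowest, the pro-apoptotic Bbc3, stood at −0.45 (−0.76 to −0.14). With ribosomal protein scaling 2 of the 14 were lower, and with the deposited divisors 4.

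**Figure D4:**
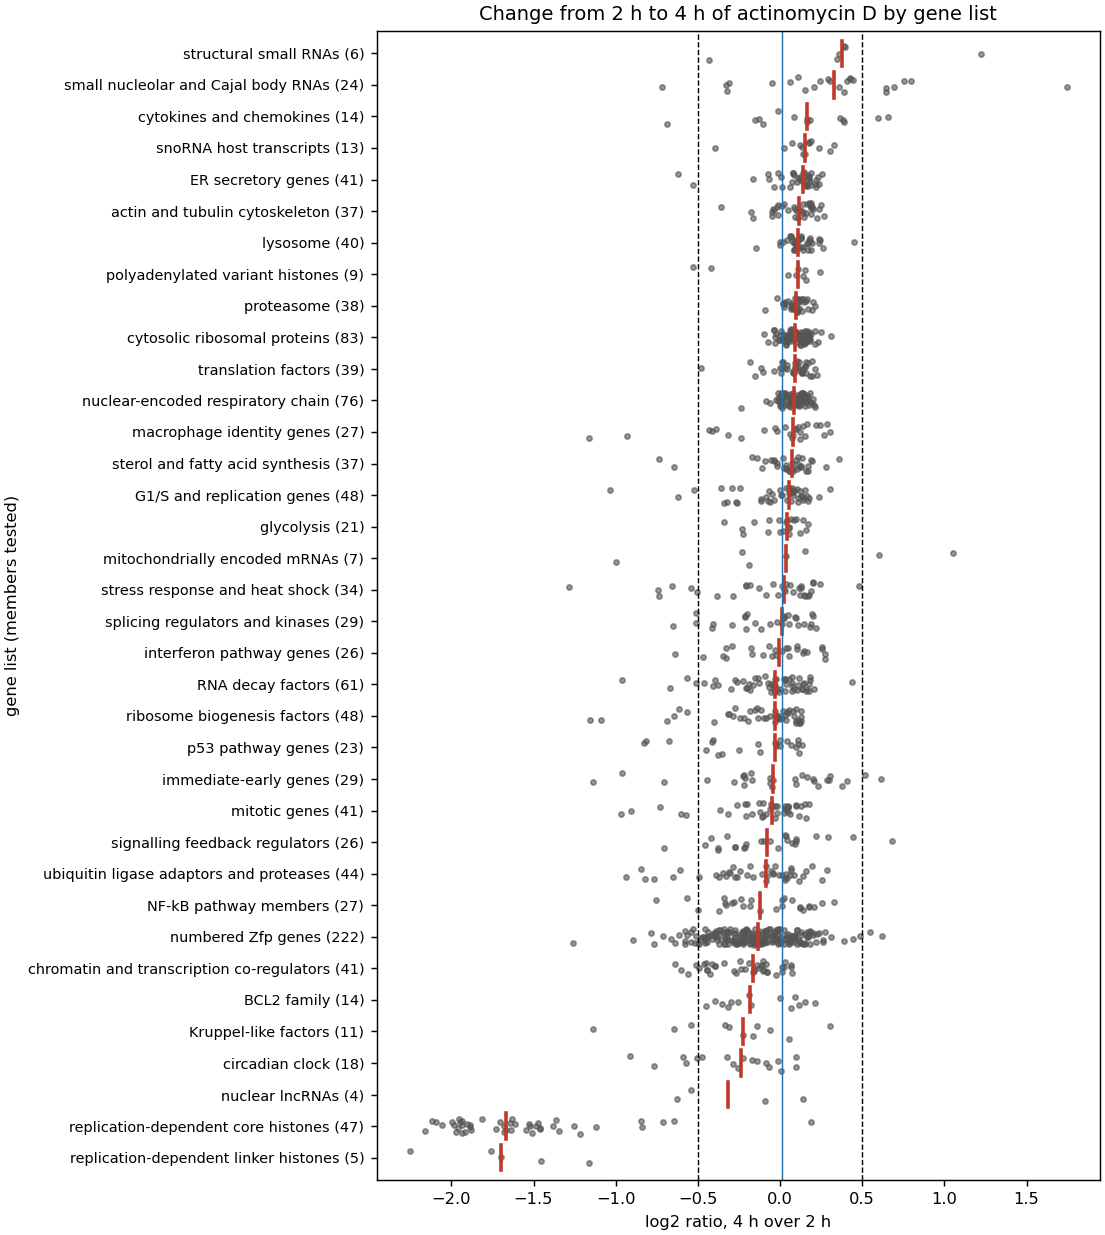
Log2 ratio of the 4 h over the 2 h library (x axis) for the tested members of each gene list shown (y axis, number of members in parentheses), 1 point a gene, with a red bar at each list's median, a blue line at the median of all genes and dashed lines at −0.5 and 0.5. Lists with few tested members, such as the mitochondrial ribosomal RNAs with 2, are not shown. Both histone lists lie apart on the left, the housekeeping lists stay within the dashed lines with medians just right of 0, and the small RNA lists have the highest medians of those shown.

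Among transcription factor families, Kruppel-like factors had 3 of 11 tested members lower (27.3%, against 7.51% of all genes) and 0 higher, with a median of −0.23. Besides Klf4 these were Klf13, at 73.1, 42.8, 27.4 and 24.4 CPM (−0.64, −0.73 to −0.55), and Klf3 (−0.54, −0.85 to −0.24). Klf2, a factor of quiescence, had a ratio of 0.31 (0.06 to 0.56) after a fall to 4.40 CPM at 2 h from 27.1 CPM untreated. The numbered Zfp genes, most of which encode zinc finger repressors, had 18 of 222 members lower (8.11%), with a median of −0.14. Zfp420 and Zfp689 were the 2 higher ones (0.901%, against 1.07% of all genes). The share lower was near the 7.51% of all genes, while 162 of the 222 ratios were below 0, against 5149 of 10765 over all genes. With at least 1 CPM in both libraries 13 of 209 members were lower and 1 higher. Zfp1 had a ratio of −1.26 (−1.85 to −0.71) from 64 and 46 counts and passed the filter only through the 2 h library. Zfp143, an activator of small nuclear RNA genes, stood at 25, 9.19, 4.94 and 3.99 CPM (−0.90, −1.10 to −0.69).

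Clock genes had a median of −0.24, with 5 of 18 tested members lower (27.8%, against 7.51% of all genes) and 0 higher. The repressor Bhlhe41 stood at 41.2, 17.8, 9.46 and 9.94 CPM (−0.91, −1.06 to −0.76). Dbp, a D-box activator, had a ratio of −0.77 (−1.10 to −0.45), Ciart, a repressor of the core loop, −0.59 (−0.84 to −0.34), and Bhlhe40 −0.51 (−0.74 to −0.28). Per2, a period protein, had −0.57 (−1.12 to −0.02) from 54 and 63 counts and passed the filter only through the 2 h library, so that 4 of 17 members were lower among those with at least 1 CPM in both libraries. All 5 were at levels under 20 CPM in both libraries, where 11.8% or more of all genes were lower.

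Chromatin and transcription co-regulators were slightly below the typical gene as a list, with a median of −0.16 and 34 of 41 ratios below 0, while 4 were lower (9.76%, against 7.51% of all genes) and 0 higher. Arid1a, the DNA-binding subunit of the BAF remodelling complex, stood at 350, 151, 97.3 and 106 CPM (−0.64, −0.69 to −0.59). The acetyltransferases Crebbp and Ep300 stood at 130 and 85.7 CPM (−0.60, −0.65 to −0.55) and at 121 and 82.4 CPM (−0.56, −0.61 to −0.51) at 2 h and 4 h. The remodeller Chd7 had a ratio of −0.51 (−0.60 to −0.42). Of 29 splicing regulators and kinases 3 were lower (10.3%), Srsf4 at −0.65 (−0.73 to −0.57) and the kinases Clk3 and Dyrk1a at −0.51 each, and the median was 0.01.

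Of 48 G1/S and replication genes 3 were lower (6.25%, against 7.51% of all genes) and 0 higher, with a median of 0.05. Cdt1, which licenses replication origins, stood at 178, 75.4, 36.7 and 26.6 CPM (−1.04, −1.11 to −0.96), the inhibitor Cdkn2d had a ratio of −0.62 (−0.76 to −0.49) and the repressor E2f8 one of −0.52 (−0.60 to −0.45). Cdt1 lies wholly within the annotated gene Gm20388 of the same strand. Of 41 mitotic genes 5 were lower (12.2%) and 0 higher, with a median of −0.05.

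The 5 mitotic genes were regulators of entry into and exit from mitosis or parts of its machinery. Ccnf, the cyclin of an SCF ubiquitin ligase, stood at 95.6, 37.7, 19.2 and 15.8 CPM (−0.97, −1.07 to −0.87). The kinesin Kif20b stood at 91.8, 55.6, 29.6 and 27.5 CPM (−0.91, −0.99 to −0.83), and the kinase Aurka at 154, 77.7, 46.9 and 32.4 CPM (−0.73, −0.80 to −0.66). The kinase Plk1 had a ratio of −0.60 (−0.66 to −0.54). Incenp, a scaffold of the Aurora B complex, had −0.57 (−0.62 to −0.52).

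Ubiquitin ligase adaptors and proteases had 6 of 44 members lower (13.6%, against 7.51% of all genes) and 0 higher, with a median of −0.08. The deubiquitinase Usp42 stood at 32.4, 5.88, 3.06 and 3.10 CPM (−0.94, −1.21 to −0.68), and the p53-directed adaptor Fbxo42 at 70.7, 23.2, 12.9 and 11.0 CPM (−0.84, −0.97 to −0.72). The others were Usp2 at −0.82, Siah2 at −0.77, Fbxo38 at −0.65 and Usp36 at −0.61. RNA decay factors had 4 of 61 members lower (6.56%) and 0 higher, with a median of −0.03. Besides Btg1 they were the decapping factor Edc3 at −0.67 (−0.77 to −0.57) and the CCR4-NOT subunits Cnot2 at −0.57 (−0.65 to −0.48) and Cnot4 at −0.51 (−0.66 to −0.36).

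Ribosome biogenesis factors had 6 of 48 members lower (12.5%, against 7.51% of all genes) and 0 higher, with a median of −0.03. Besides Gnl3, Wdr43, a processome subunit, stood at 214, 128, 60.0 and 39.2 CPM (−1.09, −1.15 to −1.03). Brix1, of the large subunit pathway, stood at 58.7, 51.2, 31.8 and 19.1 CPM (−0.69, −0.77 to −0.60) and the methyltransferase Nop2 at 227, 148, 94.4 and 61.9 CPM (−0.65, −0.70 to −0.60). Rrs1 had a ratio of −0.62 (−0.69 to −0.54), and Wdr74 one of −0.57 (−1.13 to −0.02) from 53 and 62 counts, passing the filter only through the 2 h library. With at least 1 CPM in both libraries 5 of 47 members were lower. Levels of Wdr43, Brix1 and Nop2 went down at each of the 3 steps.

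Stress response genes had 6 of 34 members lower (17.6%, against 7.51% of all genes) and 0 higher, with a median of 0.03. Besides Xbp1 these were the pseudokinase Trib3 at −0.74 (−1.15 to −0.34), the unfolded protein sensor Eif2ak3 at −0.74 (−0.91 to −0.57) and the antioxidant regulator Nfe2l2 at −0.54 (−0.61 to −0.47). The chaperone Hspa8, the most abundant of the 6, stood at 802, 527, 334 and 213 CPM (−0.66, −0.68 to −0.63), and its partner Dnajb1 had −0.51 (−0.66 to −0.36). In the endoplasmic reticulum list 2 of 41 were lower, the ligase Syvn1 at −0.62 (−0.74 to −0.51) and Sec61g at −0.53 (−1.05 to −0.02), and the median was 0.14. Sec61g was under 1 CPM at 4 h, and without it 1 of 40 was lower.

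Of 27 macrophage identity genes 2 were lower (7.41%, against 7.51% of all genes) and 0 higher, with a median of 0.08. Beside Tlr2, the lower one was Cebpb, a transcription factor of myeloid cells, at 164, 50.8, 26.7 and 31.5 CPM (−0.93, −1.02 to −0.84). Lysozyme, Lyz2, stood at 1829 CPM at 2 h and 2259 CPM at 4 h (0.30, 0.29 to 0.32), and the co-receptor Cd14 at 499 and 493 CPM (−0.02, −0.04 to 0.01). Among sterol synthesis genes, the monooxygenase Sqle was lower, at 169, 130, 78.1 and 51.4 CPM (−0.74, −0.79 to −0.68).

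Housekeeping lists had medians near the typical gene. Of 83 cytosolic ribosomal protein genes, 39 translation factors, 76 nuclear-encoded respiratory chain genes, 38 proteasome, 40 lysosome, 21 glycolysis and 37 cytoskeleton genes, 0 were lower and 0 higher. Their medians were 0.09, 0.09, 0.09, 0.10, 0.11, 0.04 and 0.11. Among all genes 7.51% were lower, but of those at 100 CPM or more 1.03%. Ribosomal protein ratios ran from −0.10 in Rps14 to 0.31 in Rpl37a. Other lists reached further, down to −0.48 in the translation factor Eif1a, −0.36 in Tubb4b (cytoskeleton) and −0.34 in Hk2 (glycolysis). The lysosome list reached up to 0.45 in Ctsh. With the deposited divisors the medians were −0.10, −0.10, −0.11, −0.09, −0.08, −0.15 and −0.08, and with scaling on ribosomal protein genes those of the respiratory chain and the proteasome were −0.02 and −0.01, so the sign of these small differences depends on the scaling. Of the reference genes used in such assays, Actb had a ratio of 0.23 (0.23 to 0.24), Hprt 0.29 (0.25 to 0.32), Gapdh 0.14 (0.12 to 0.16), B2m 0.12 (0.08 to 0.16) and Tbp −0.36 (−0.48 to −0.24).

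On the higher side, 8 genes reached a log2 ratio of 1, and 4 of them are small non-coding RNAs by annotation. Gm24119, annotated as a snoRNA, had the highest ratio of all tested genes at 2.47 (2.11 to 2.87), with 2.18, 1.51, 8.37 and 9.94 CPM at the 4 times from 65 counts at 2 h and 629 at 4 h. Gm26316, annotated as a small nuclear RNA, stood at 22.4, 21.7, 66.8 and 80.6 CPM (1.62, 1.52 to 1.72). From the untreated to the 2 h library the ratio of Gm24119 was −0.53, from 67 and 65 counts. Rnu12, the U12 RNA of the minor spliceosome, had 1.22 (0.64 to 1.88) from 29 and 119 counts, and passed the filter only through the 4 h library. The other 5 were Snora23, mt-Nd6 and 3 genes named after clones. Of the 8 genes, 5 had at least 1 CPM in both libraries. Genes of this group outside the lists were chosen after their values were seen.

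Small nucleolar RNAs guide the chemical modification of ribosomal RNA or take part in its processing, and most in mice are cut out of introns. Of 147 small nucleolar and Cajal body RNAs listed, 24 were tested, of which 6 were higher and 1 lower, with a median of 0.33. With the deposited divisors 4 were higher and 4 lower, with a median of 0.14. Their median was −0.02 from the untreated to the 2 h library and 1.06 from 4 h to 6 h. The members that passed the filter are the abundant ones and do not stand for all 147. Over every gene annotated as a snoRNA, 11 of 52 tested were higher (21.2%) and 2 lower (3.85%), against 1.07% and 7.51% of all genes. Their median level was 3.06 CPM, and of all genes between 1 and 5 CPM 5.11% were higher and 13.3% lower.

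The RNAs of 3 higher members are printed here because their boxes show which class each belongs to. Snora31 and Snora73a, not printed, had higher ratios than Snora73b. Each runs 5′ to 3′ on the gene's strand in the mm10 build, from GENCODE M21. In Snora23 and Snora73b the capitals mark the ACA box of 3 bases that stands 3 bases before the end, the sign of the H/ACA class. In Snord17 they mark the C box TGATGA and the D box CTGA of the C/D class.
Snora23: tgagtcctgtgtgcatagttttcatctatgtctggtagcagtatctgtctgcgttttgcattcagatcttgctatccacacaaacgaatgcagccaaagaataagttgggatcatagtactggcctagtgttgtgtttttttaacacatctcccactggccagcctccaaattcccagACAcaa
Snora73b: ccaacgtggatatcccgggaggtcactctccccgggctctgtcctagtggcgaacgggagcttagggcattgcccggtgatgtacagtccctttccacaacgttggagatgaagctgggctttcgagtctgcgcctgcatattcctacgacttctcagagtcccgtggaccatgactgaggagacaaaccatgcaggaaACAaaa
Snord17: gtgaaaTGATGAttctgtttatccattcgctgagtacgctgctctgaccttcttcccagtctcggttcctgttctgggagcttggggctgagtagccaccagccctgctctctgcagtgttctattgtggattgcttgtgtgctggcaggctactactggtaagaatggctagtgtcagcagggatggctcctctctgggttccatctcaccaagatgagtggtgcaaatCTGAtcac
They lie at chr7:110046364-110046547 (Snora23, plus strand, 184 bases), chr4:132352322-132352526 (Snora73b, minus, 205 bases) and chr2:144265979-144266216 (Snord17, minus, 238 bases).

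Snora23 stood at 6.08, 6.32, 21.2 and 43.5 CPM, from 273 counts at 2 h and 1594 at 4 h. Its 4 h level was 336% of the 2 h level, a ratio of 1.74 (1.56 to 1.94), after a level stretch before 2 h. The RNA lies in the gene Ipo7 on the same strand, whose own ratio was 0.12 (0.10 to 0.15). Snora73b stood at 198, 197, 308 and 575 CPM (0.65, 0.61 to 0.68), and lies within Rcc1 and Snhg3, whose ratios were 0.06 (0.01 to 0.10) and 0.12 (−0.06 to 0.31).

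Snord17 stood at 51.0, 55.9, 94.3 and 158 CPM (0.75, 0.69 to 0.82) and Snora74a at 48.4, 51.8, 80.8 and 152 CPM (0.64, 0.57 to 0.71). Both were level before 2 h and higher at each later time. Snora73a had a ratio of 0.69 (0.52 to 0.87) and Snora31 one of 0.80 (0.32 to 1.31) from 47 and 143 counts, while Snora24 was lower at −0.72 (−1.01 to −0.43). The 13 tested host transcripts of snoRNAs had 0 members past either threshold and a median of 0.15. Among all genes 7.51% were lower and 1.07% higher.

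Of 17 structural RNAs listed, 6 were tested, with a median of 0.37, and 1 was higher (16.7%, against 1.07% of all genes) and 0 lower. That 1 was Rnu12, and of the 5 with at least 1 CPM in both libraries 0 were past either threshold. Rpph1, the RNA of ribonuclease P, went from 0.944% of all counts at 2 h to 1.15% at 4 h, a log2 ratio of 0.36 (0.35 to 0.37). Rmrp, the RNA of ribonuclease MRP, and Rn7sk, which holds the elongation factor P-TEFb, both had 0.39. Rnu3a, a U3 RNA of early ribosomal RNA processing, was at −0.43 (−0.48 to −0.38). Among nuclear long non-coding RNAs, Kcnq1ot1 stood at 168, 159, 103 and 101 CPM (−0.63, −0.68 to −0.58) and Neat1 at 406, 270, 186 and 193 CPM (−0.54, −0.57 to −0.50), while Malat1 had 0.14 (0.13 to 0.15). These long non-coding RNAs are known as nuclear, whereas the labelled molecule was cytoplasmic RNA. Kcnq1ot1 lies opposite Kcnq1 along its whole length.

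Mitochondrially encoded transcripts, made by the organelle's own polymerase from long precursors, split within the list. Of 13 mRNAs listed, 7 were tested, with a median of 0.04. Of these, 2 were higher and 1 lower (28.6% and 14.3%, against 1.07% and 7.51% of all genes). The mRNA of complex I subunit 1, mt-Nd1, stood at 817, 448, 224 and 179 CPM (−0.997, −1.03 to −0.97), so that 50.1% of its 2 h level was left. The only light-strand mRNA, mt-Nd6, stood at 43.1, 40.8, 84.7 and 73.2 CPM (1.05, 0.98 to 1.13). The 2 lie on opposite strands and had opposite directions, at chrM:2751-3707 on the plus strand and chrM:13552-14070 on the minus strand. The genes mt-Co1, mt-Rnr2 and mt-Rnr1 lie on the plus strand like mt-Nd1. Their ratios, given below, were positive while that of mt-Nd1 was negative. The part of strand was not tested, and the sources used here do not state whether the counting used strand.

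The complex IV subunit mRNA mt-Co1 stood at 1627, 1828, 2776 and 2576 CPM (0.60, 0.59 to 0.61). The mRNAs mt-Cytb, mt-Nd5, mt-Nd2 and mt-Nd4, which belong to complexes I and III, had ratios of −0.23, −0.19, 0.04 and 0.15, all between the thresholds, against ratios of −0.95, −1.05, −1.73 and −1.34 before 2 h. The ribosomal RNAs mt-Rnr2 and mt-Rnr1 had ratios of 0.55 (0.55 to 0.56) and 0.33 (0.33 to 0.34), in libraries made after ribosomal RNA depletion. mt-Nd6 shares 14 bases with mt-Nd5 on the other strand.

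Among the 12 named genes of highest ratio at 10 CPM or more, 5 passed 0.5, Spp1, Cldn11, Plau, Car2 and Jun. Spp1, the secreted phosphoprotein osteopontin, stood at 465, 520, 819 and 1408 CPM, a ratio of 0.66 (0.63 to 0.68) from 22435 and 61545 counts. Plau, the urokinase protease, stood at 79.9, 67.0, 103 and 173 CPM (0.62, 0.55 to 0.68). Car2, a carbonic anhydrase of osteoclasts, stood at 43.8, 54.2, 81.9 and 147 CPM (0.60, 0.53 to 0.67), and the claudin Cldn11 at 8.20, 9.82, 15.2 and 25.7 CPM (0.63, 0.46 to 0.79). The levels of these 4 genes were higher again at 6 h.

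The other 7 of these 12 lay between 0.41 and 0.49. They were Tmem98 at 0.49 (0.36 to 0.63), Myo1d at 0.48 (0.41 to 0.56), Ppp1r15a, a phosphatase subunit of the stress response, at 0.48 (0.33 to 0.63), Wdr89 at 0.47 (0.33 to 0.62), the glycoprotein Gpnmb at 0.47 (0.41 to 0.53), the cathepsin Ctsh at 0.45 (0.31 to 0.59) and Ier5 at 0.41 (0.29 to 0.52). The intervals of all 12 left out 0. With the deposited divisors Spp1 stood at 0.46, Cldn11 at 0.43, Plau at 0.42 and Car2 at 0.40, all under the threshold, while Snora23 and mt-Nd6 stayed past it at 1.55 and 0.86. Snora73b, mt-Co1 and mt-Rnr2 then stood at 0.45, 0.41 and 0.36.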

How the data were processed

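One deposited table of 41324 genes held 4 libraries of 1 cell line, 1 library at each of 4 times. Its counts per gene, whole numbers that the authors made, were used as deposited. The submitters' processing notes name STAR 2.5.3a, Subread 1.6.3 with featureCounts, and the mm10 build. The annotation release, strand setting and handling of multi-mapping reads were not given in the sources used here. The deposited normalized signal columns equalled the counts over a constant for each library (1300, 2250, 4476 and 748 at 0, 2, 4 and 6 h), and the sources do not say where these constants come from. The half-life column of the authors' deposited table was taken as a score, made by a fit that the sources do not describe. Columns not matched to a sample numbered 0.

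Counts were scaled with TMM over the 4 libraries (edgeR 4.0.16, R 4.3.3) and log2 ratios used a prior count of 0.5. Genes with a mean of at least 1 CPM over the 2 h and 4 h libraries were kept. Intervals are exact (Clopper-Pearson, 95%, on the 4 h share of both counts) and cover counting error only. A log2 ratio of 0.5 or more in size, a fold of 1.41, was called, and no p-value was computed with 1 library a side. The step and its interval were checked on simulated counts. These held counting error only, so the check cannot speak to variation between cultures.

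The members and the 39 gene lists were chosen with earlier results of these data known. The rule for named genes took, at 10 CPM or more and without predicted, clone or pseudogene names, the 12 lowest ratios outside histones and the 12 highest outside mitochondrial, snoRNA and structural RNAs. It also took the 2 most abundant members and the lowest and highest (at 5 CPM or more) of each list, 12 reference and benchmark genes, and the 4 genes of largest share. List members named because they passed the threshold, and genes of snoRNA or snRNA annotation outside the lists, were chosen after their values were seen. Some list members past the threshold are not reported here. Of 22 mitochondrial tRNAs listed 0 passed the filter, and of 42 markers of other cell types in a wider list 1 did, Mbp, which macrophages also transcribe, at −0.49.

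Untranslated regions, exons and sequences came from GENCODE M21 of the mm10 build, matched by symbol for 9553 of 10765 genes (88.7%), taking the longest annotated 3' UTR. Motifs were searched on the sense strand. Coordinates are 1-based. The alternatives were other scalings (DESeq2 1.42.0 size factors, TMM over 2 libraries, total counts with and without ribosomal RNA genes, ribosomal protein and respiratory chain genes, the deposited divisors), other filters, folds and prior counts.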

Additional observations from a re-analysis of the deposited data

How the results depend on the processing

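No paired analysis was possible because each time had 1 library, and for the same reason no replicate could be left out. The count of lower genes, 808, stayed within 1.5 times with DESeq2 size factors (815), total counts (1072) and ribosomal protein or respiratory chain scaling (1203 and 1198), and went to 1698 with the deposited divisors. The count of higher genes, 115, went to 63 with ribosomal protein scaling, 63 with respiratory chain scaling and 33 with the deposited divisors. Lower genes thus made up 87.5% of calls with TMM and 98.1% with the deposited divisors. Without a filter 2811 of 18076 genes were lower and 2776 higher, and at 5 CPM or more 553 were lower and 17 higher. With at least 1 CPM in both libraries, chosen after the values were seen, 753 were lower and 84 higher. A log2 ratio of 0.25 gave 2074 and 530, and one of 1 gave 105 and 8. Of 48 named genes past the threshold, 40 to 48 stayed past it under the 7 other scalings and the prior counts of 0 and 2, and 0 changed sign. Among all 166 named genes, 52 changed sign with the deposited divisors, all of them between the thresholds with TMM. The single library a side is the main limit, since no interval given here holds variation between cultures.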
